A study of Mus musculus with 12 samples.

Results

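The genes described here encode the ligands and receptors of the transforming growth factor beta (TGF-beta) and bone morphogenetic protein (BMP) families: Tgfb1, Tgfb2, Tgfb3, Bmp2, Bmp4, Bmp6 and Bmp7 as ligands, and Bmpr1a, Bmpr1b and Bmpr2 as receptors. They were found by name, as all probes to which the array annotation gives exactly 1 gene symbol equal to one of these. That rule uses names alone, though the genes were listed with earlier results of these data known. This gave 13 probes for 10 genes, of 18069 genes with a probe of their own. Bmp2, Bmp7 and Tgfb3 had 2 probes each, called the brighter and the dimmer probe. All 13 probes passed the filter on dim signal.

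The genes were measured in the whole ovary of 12 female mice, 1 CodeLink oligonucleotide array per mouse, in 4 groups of 3. Lethal yellow (LY) mice carry the Ay/a genotype and black mice the a/a genotype, both on C57BL/6J (written C56BL/6J in the sample labels), and each genotype was studied at 180 and at 90 days of age. All mice of all groups received the GnRH antagonist Antide (10 microg/g) on days 1 and 4 and then equine chorionic gonadotropin (1 IU per 5 g body weight), with the ovaries taken on day 7, at 36 h after the gonadotropin. The Ay allele is a deletion that places agouti under the promoter of Raly and removes part of Raly, so LY mice express agouti in tissues throughout the body and differ from black mice in more than body weight. The comparison of LY with black ovaries asks whether obesity, which sets in between these ages, goes with altered ovarian transcripts.

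TGF-beta and BMP ligands are secreted dimers that bring together type II and type I receptor kinases, which then phosphorylate receptor Smads. The TGF-betas, which are released in a latent complex, act through Tgfbr2 and Tgfbr1 on Smad2 and Smad3, and the BMPs act through Bmpr2 with Bmpr1a or Bmpr1b on Smad1, Smad5 and Smad9, with Smad4 as the partner of both branches. In the ovary, theca cells, granulosa cells and oocytes exchange these ligands, and BMPs are known to restrain progesterone synthesis in granulosa cells stimulated by gonadotropin. Bmpr1b is required for normal fertility in female mice.

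The promoters of Tgfb1, Tgfb2 and Bmpr2 are shown because the genotype pattern of Tgfb1 and the age differences of all these genes are described further on. Tgfb3 and Bmp2 also differed between the ages, and they and Bmp7 are named only, since the promoter table used has no entry for them. Each is the 250 bases before the RefSeq transcript start on GRCm38.p6, 5′ to 3′ on the strand of the gene. Capitals mark motif matches on either strand, none of which overlapped. The GC box, bound by Sp1, was searched as GGGCGG. The TATA box, which positions the transcription start in a minority of genes, was searched as TATAAA. The core of the Smad-binding element was searched as CAGAC.
Tgfb1, chr7:25686752-25687001, plus strand: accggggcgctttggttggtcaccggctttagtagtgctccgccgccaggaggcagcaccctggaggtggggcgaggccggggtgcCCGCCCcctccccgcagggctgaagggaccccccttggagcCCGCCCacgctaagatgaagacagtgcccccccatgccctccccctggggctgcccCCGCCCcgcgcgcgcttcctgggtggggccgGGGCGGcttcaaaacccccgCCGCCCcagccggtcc
Tgfb2, chr1:186705990-186706239, minus strand: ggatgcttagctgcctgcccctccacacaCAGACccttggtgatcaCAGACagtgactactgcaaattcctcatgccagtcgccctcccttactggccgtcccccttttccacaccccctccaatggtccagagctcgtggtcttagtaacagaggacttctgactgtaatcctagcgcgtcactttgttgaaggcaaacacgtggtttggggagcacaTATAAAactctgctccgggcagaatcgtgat
Bmpr2, chr1:59764029-59764278, plus strand: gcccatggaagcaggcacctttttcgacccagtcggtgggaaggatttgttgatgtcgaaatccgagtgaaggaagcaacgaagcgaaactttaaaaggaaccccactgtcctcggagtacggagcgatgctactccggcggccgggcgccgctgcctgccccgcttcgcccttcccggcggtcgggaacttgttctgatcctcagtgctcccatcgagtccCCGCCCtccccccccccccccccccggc
The Tgfb1 window was 75.2% G and C and held 5 GC boxes, with no match to TATAAA or CAGAC. The Tgfb2 window was 53.6% G and C and held 1 TATA box close to the start and 2 CAGAC matches. The Bmpr2 window was 64% G and C and held 1 GC box. Of 32851 promoter windows of this length, 32.74% held a GC box, 12.37% TATAAA and 42.19% CAGAC. A match is a description of the letters. Of the 10 genes, 7 had a promoter in the table.

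Agouti checked the genotype labels. It measured 103 ± 7.36 relative intensity units (SD, n = 3) in 180-day LY ovaries and 0.294 ± 0.109 in 180-day black ovaries, and 97.2 ± 1.79 and 0.295 ± 0.0165 at 90 days. One relative intensity unit is the median of the array, and 0.2 units serves as the limit of sensitivity. Markers of granulosa cells (7 of 8 tested), theca cells (2 of 4), oocytes (10 of 10) and stroma (6 of 6) were detected, none of them under that limit on all arrays of a group. Since 80.8 to 83.3% of the probes on each array reached that limit, this does not by itself identify the tissue. Pairs of arrays of the same group had correlations of 0.970 to 0.987 (log2 values), pairs of LY and black arrays of the same age 0.962 to 0.984, and pairs from different ages 0.918 to 0.938. The study ran the 180-day arrays first and the 90-day arrays later, so the age of the mice and the array set cannot be told apart. In whole ovaries, fewer cells of a type and less RNA per cell cannot be told apart either.

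**Figure D1:**
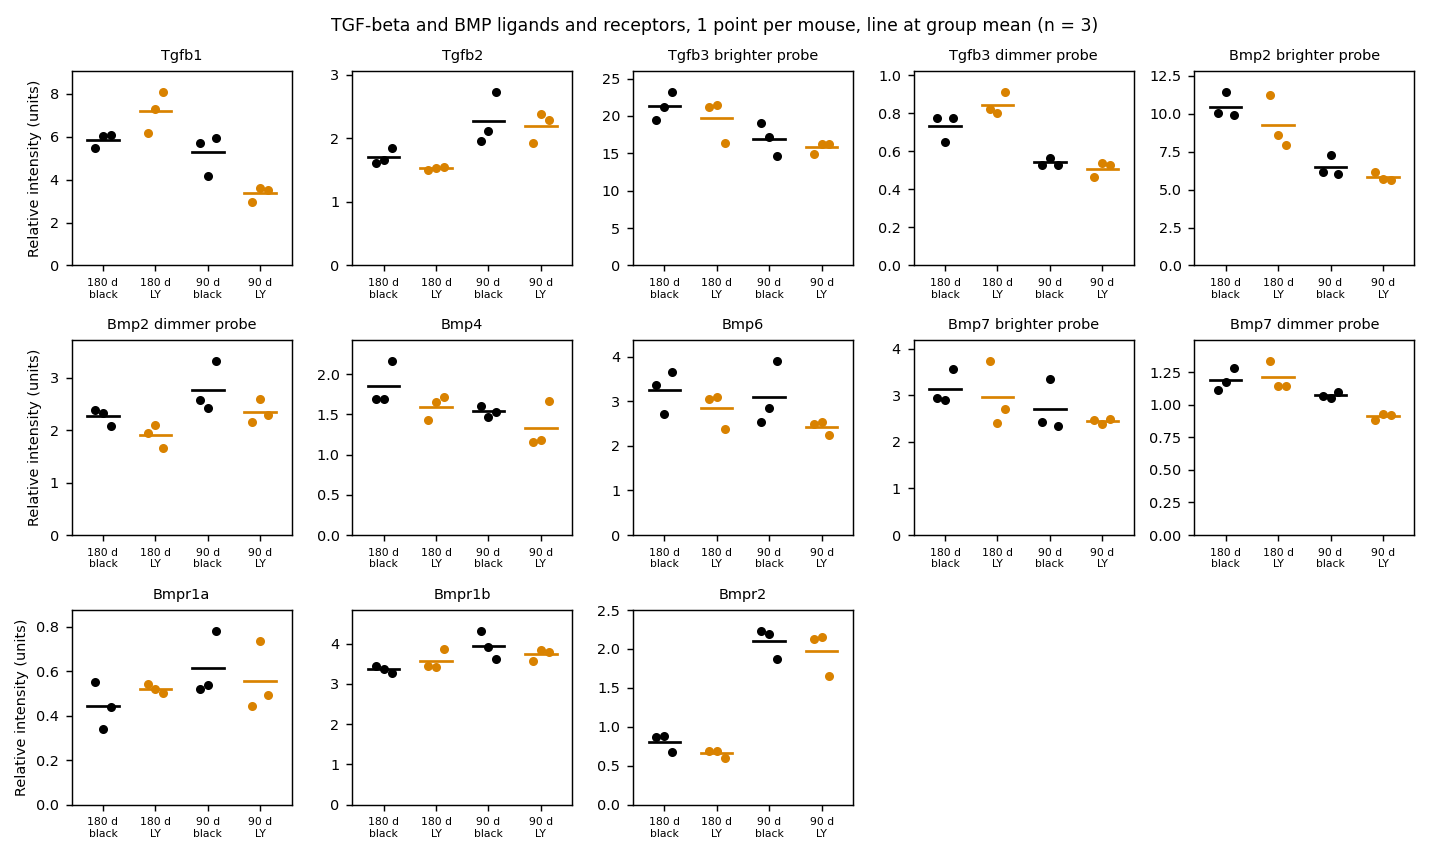
Relative intensity (units of the array median, linear axis from 0) of the 13 probes in each mouse, by age and genotype, with a line at the mean of 3 mice. The LY and black points of Tgfb1 are apart in opposite directions at the 2 ages, and the Bmpr2 points at 180 days, 0.601 to 0.877 units, are all below those at 90 days, 1.65 to 2.24 units.

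None of the 13 probes passed the test between LY and black ovaries. At 180 days 0 of 13 were called (limma, adjusted p under 0.05 over all 31359 probes tested), where 0.0446% of all probes were. At 90 days 0 of 13 were called, where 0.0446% of all probes were. Before adjustment 0 of 13 had p under 0.05 at 180 days, against 12% of all probes, and 2 of 13 at 90 days, Tgfb1 and the dimmer Bmp7 probe, against 13.3%. Averaged over both ages, 0 of 13 were called against 0.00638% of all probes, and 1, the dimmer Bmp2 probe, had p under 0.05 before adjustment, against 13%.

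The intervals of these differences show their precision, for each probe taken alone. At 180 days the 95% intervals of all 13 log2 differences lay within -0.60 and 0.76. The estimates ran from -0.28 to 0.29 with a median of -0.12, beside 0.03 for all probes, and 8 of 13 were below 0, beside 44.1% of all probes. At 90 days the estimates ran from -0.63 to -0.04, with a median of -0.15 beside -0.00 for all probes, and the intervals lay within -0.97 and 0.36. All 13 estimates were below 0 at that age, beside 50.9% of all probes, and none of the 13 passed the test.

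**Figure D2:**
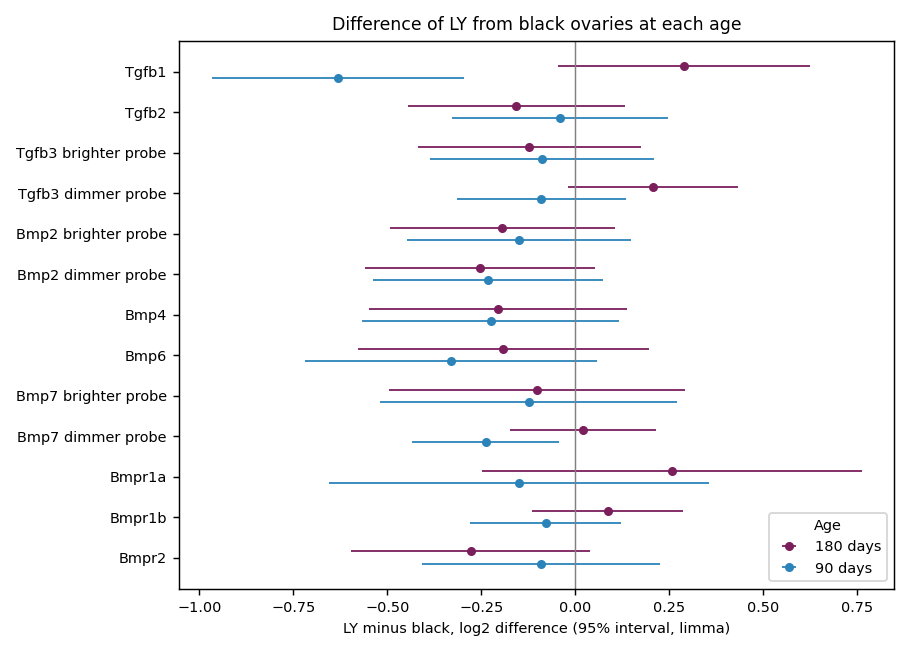
Log2 difference of LY from black ovaries for each probe at 180 and at 90 days, with the 95% interval from limma (n = 3 mice per group). At 90 days all 13 points are left of 0, and the intervals of Tgfb1 and the dimmer Bmp7 probe do not reach 0 at that age.

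Tgfb1 encodes the most widely expressed TGF-beta, which acts on immune cells, fibroblasts and steroid-producing cells. It measured 5.49, 6.03 and 6.06 units in the 3 black ovaries at 180 days and 6.19, 7.30 and 8.10 in the LY ovaries. At 90 days it measured 5.70, 4.16 and 5.91 units in black ovaries and 2.96, 3.62 and 3.52 in LY ovaries. Thus every LY ovary was above every black ovary at 180 days and below every black ovary at 90 days. Tgfb1 was the only one of the 13 probes with groups apart in opposite directions at the 2 ages, a pattern found in 2.26% of all probes.

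The LY difference of Tgfb1 was 0.29 on the log2 scale (SE 0.15, 95% interval -0.05 to 0.62, limma adjusted p = 0.481) at 180 days. At 90 days it was -0.63 (SE 0.15, 95% interval -0.97 to -0.30), 1.55-fold lower in LY (limma adjusted p = 0.135). The difference between these effects was 0.92 (SE 0.21, 95% interval 0.45 to 1.39, limma adjusted p = 0.133). No probe of all those tested was called for such a difference (0%), while 12.1% had p under 0.05 before adjustment. Over the groups the mean level ran from 7.20 ± 0.959 units in 180-day LY through 5.86 ± 0.323 in 180-day black and 5.26 ± 0.956 in 90-day black to 3.37 ± 0.352 in 90-day LY (SD, n = 3). The black ovaries of the 2 ages overlapped in range.

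Markers of the ovarian surface epithelium lay on the same side as Tgfb1 at 90 days. Of 8 markers 7 were tested, all 7 had estimates below 0 in LY (median -0.69, 0 called, lowest adjusted p = 0.113), and their summed level was 20.4 to 22.0 units in LY and 26.3 to 37.3 in black ovaries. At 180 days all 7 were again below 0 (median -0.29, 0 called), while the Tgfb1 estimate was above 0. The sums at that age were 23.2 to 30.1 units in LY and 28.9 to 33.3 in black ovaries. For the difference of the LY effect between the ages all 7 were above 0 (median 0.57, 0 called), as was Tgfb1. None of these markers was under 0.2 units on all arrays of a group. The 4 leukocyte markers tested, of 6, gave sums that overlapped between the genotypes at 180 days (34.0 to 59.8 units in LY, 38.7 to 59.4 in black) and at 90 days (22.3 to 33.8 and 20.6 to 32.4). Most of each sum was Lyz2 (28.7 to 54.2 units at 180 days). Estimates above 0 in LY were found for 2 of 4 at 180 days and 3 of 4 at 90 days. For the difference between these effects it was 1 of 4 (0 called). Of the endothelial markers, 4 of 6 had estimates above 0 in LY at 180 days and 5 of 6 below 0 at 90 days (0 called), and 5 of 6 were above 0 for the difference between these effects (0 called). Their sums were 34.2 to 35.4 units in LY and 32.1 to 33.8 in black ovaries at 180 days, without overlap, and 28.4 to 35.8 and 33.7 to 38.7 at 90 days, with overlap. Emcn was the only endothelial marker with groups apart at 180 days (10.9 to 12.8 units in LY, 9.32 to 10.2 in black ovaries). Of all probes 22.6% were apart at 180 days. The means of Tek and Tie1 were lower in LY at that age (2.94 and 5.43 units against 3.13 and 6.27). At most 1 of the 6 endothelial markers was under 0.2 units on all arrays of a group. The 5 adipocyte markers tested, of 7, were all above 0 for the difference (0 called), with sums of 25.1 to 27.2 units in LY and 19.7 to 44.2 in black ovaries at 180 days and 9.78 to 41.0 and 13.6 to 66.8 at 90 days, and at most 1 was under 0.2 units on all arrays of a group. Granulosa and oocyte markers were mostly below 0 for that difference, 6 of 7 (median -0.64) and 9 of 10 (median -0.56). Below 0 were also 4 of 6 smooth muscle, 3 of 6 stroma, 1 of 2 theca and 0 of 3 adrenal cortex markers (0 called in any list). Of all probes 45.9% were below 0 for that difference. The part of any of these cell types in the Tgfb1 values was not tested.

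Tgfb2, a TGF-beta required for the normal development of several organs, was measured at 1.62, 1.67 and 1.85 units in 180-day black ovaries and at 1.51, 1.54 and 1.55 in 180-day LY ovaries. The groups did not overlap, but the difference of -0.16 (SE 0.13, limma adjusted p = 0.674) did not pass the test. At 90 days black ovaries gave 1.97, 2.12 and 2.74 units and LY ovaries 1.93, 2.39 and 2.28, and the groups overlapped.

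Tgfb3, known for its part in palate closure and tissue remodelling, had a bright and a dim probe that were on different sides of 0 at 180 days. The brighter probe measured 21.3 ± 1.90 units in black ovaries against 19.7 ± 2.88 in those of LY mice (SD, n = 3), a log2 difference of -0.12 (SE 0.13, limma adjusted p = 0.763). The dimmer probe measured 0.776, 0.652 and 0.776 units in black and 0.822, 0.801 and 0.916 in LY ovaries, a difference of 0.21 (SE 0.10, limma adjusted p = 0.458). The groups of the dimmer probe did not overlap and those of the brighter probe did. At 90 days both probes overlapped between genotypes, with differences of -0.09 each (adjusted p = 0.824 for the brighter and 0.753 for the dimmer).

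In all, the LY and black groups did not overlap in 3 of 13 probes at 180 days, where 22.6% of all probes were apart: Tgfb1 and the dimmer Tgfb3 probe were higher in LY, as were 14.3% of all probes, and Tgfb2 was lower, as were 8.37%. At 90 days 3 of 13 were apart, Tgfb1, Bmp6 and the dimmer Bmp7 probe, all lower in LY, where 16.6% of all probes were apart in either direction and 9.66% lower.

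The 6 probes of BMP ligands had estimates below 0 in LY ovaries when averaged over both ages, and none passed the test. These log2 differences ran from -0.26 to -0.11 (limma adjusted p = 0.333 to 0.744), all 6 below 0 beside 47.2% of all probes. At 180 days 5 of 6 were below 0, all but the dimmer Bmp7 probe. At 90 days 6 of 6 were below 0, as were all 13 probes. Both Bmp2 and Bmp7 are measured by a pair of probes, so the 6 probes are 4 genes and not 6 independent values.

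Bmp2, made by granulosa cells in the ovary and best known from bone formation, gave 10.0, 11.5 and 9.88 units on its brighter probe in 180-day black ovaries and 11.2, 8.57 and 7.90 in LY ovaries. At 90 days it gave 6.16, 7.26 and 6.06 units in black and 6.18, 5.71 and 5.62 in LY ovaries. The groups overlapped at both ages. On the dimmer probe, black ovaries gave 2.38, 2.32 and 2.08 units at 180 days and LY ovaries 1.95, 2.10 and 1.66, and at 90 days the values were 2.57, 2.42 and 3.31 against 2.15, 2.59 and 2.28. The ranges of the dimmer probe overlapped at both ages as well. Averaged over both ages, the brighter probe differed by -0.17 (SE 0.10, limma adjusted p = 0.482) and the dimmer by -0.24 (SE 0.10, limma adjusted p = 0.333). Granulosa markers were on the same side as Bmp2 at 180 days, with 6 of 7 below 0 in LY. They were on the other side at 90 days, with 6 of 7 above 0 (0 called at either age). Their part in the Bmp2 values was not tested.

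Bmp4, a BMP that theca cells supply to the follicle, measured 1.85 ± 0.273 units in black and 1.60 ± 0.1504 in LY ovaries at 180 days, and 1.54 ± 0.0723 and 1.33 ± 0.289 at 90 days (SD, n = 3). Its differences were -0.21 and -0.23 (SE 0.15 each, limma adjusted p = 0.636 and 0.569). In the 90-day LY group 1 mouse, at 1.66 units, was above all black mice of that age, and the other LY mice were at 1.15 and 1.18.

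Bmp6, which oocytes are known to express, measured 3.37, 2.71 and 3.66 units in 180-day black ovaries and 3.06, 3.09 and 2.37 in LY ovaries. At 90 days it measured 2.54, 2.84 and 3.91 units in black and 2.49, 2.53 and 2.25 in LY ovaries. The 90-day groups did not overlap, yet the nearest black and LY mice were 2.54 and 2.53 units. The 90-day difference was -0.33 (SE 0.18, limma adjusted p = 0.449) and that at 180 days -0.19 (SE 0.18, adjusted p = 0.708). Oocyte markers were on the same side as Bmp6 at 180 days, with 9 of 10 below 0 in LY, and on the other side at 90 days, with 9 of 10 above 0 (0 called at either age). Their part in the Bmp6 values was not tested.

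Bmp7, another theca-derived ligand, gave overlapping groups on its brighter probe at both ages, 3.13 ± 0.372 units in black and 2.96 ± 0.694 in LY ovaries at 180 days and 2.70 ± 0.558 and 2.45 ± 0.0549 at 90 days (SD, n = 3). Its dimmer probe measured 1.07, 1.05 and 1.10 units in 90-day black ovaries and 0.882, 0.928 and 0.921 in LY ovaries. These groups were apart with little spread, by -0.24 (SE 0.09, 95% interval -0.43 to -0.04, limma adjusted p = 0.289). At 180 days the same probe measured 1.19 ± 0.0824 and 1.21 ± 0.109 units and the groups overlapped. The difference of the LY effect between the ages was 0.26 (SE 0.12, limma adjusted p = 0.444).

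The 3 BMP receptors did not pass the test between genotypes. Bmpr1a, a type I receptor found in most tissues, was dim: black ovaries gave 0.554, 0.341 and 0.441 units at 180 days and LY ovaries 0.543, 0.521 and 0.503. At 90 days black ovaries gave 0.522, 0.540 and 0.783 units and LY ovaries 0.444, 0.735 and 0.496. The groups overlapped at both ages, and the differences of 0.26 and -0.15 (SE 0.23 each) had the widest intervals of the 13 probes.

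Bmpr1b, the type I receptor tied to ovulation, varied little between groups. It measured 3.36 ± 0.0844 units in black and 3.58 ± 0.254 in LY ovaries at 180 days, and 3.95 ± 0.358 and 3.73 ± 0.151 at 90 days (SD, n = 3). The LY difference averaged over both ages was 0.00 with a 95% interval of -0.14 to 0.15 (limma adjusted p = 0.985).

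Bmpr2, the type II receptor shared by the BMPs, measured 0.866, 0.877 and 0.671 units in black and 0.690, 0.689 and 0.601 in LY ovaries at 180 days. The LY ovaries of that age were at the low end of the black range or below it, a difference of -0.28 (SE 0.14, limma adjusted p = 0.472). At 90 days it measured 2.24, 2.20 and 1.87 units in black and 2.12, 2.16 and 1.65 in LY ovaries, which overlapped (log2 difference -0.09, SE 0.14).

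Between the ages, by contrast, 8 of 13 probes (61.5%) were called, 5 higher and 3 lower at 180 days. Of all probes 59.3% were called in that comparison, 33.8% higher and 25.4% lower. The share among these genes was therefore close to that of the whole array, and each age value below is also a value between the array sets. In 5 of 13 probes the 6 arrays of one age did not overlap the 6 of the other, 3 higher and 2 lower at 180 days, where 36.7% of all probes were so apart, 20.7% higher and 16% lower. The median of all probes was 0.06 on the log2 scale.

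Bmpr2 had the largest age difference of the 13 probes. It was 0.732 ± 0.113 units at 180 days and 2.04 ± 0.229 at 90 days (SD, n = 6), a log2 difference of -1.48 (SE 0.10, limma adjusted p = 5.7e-07) or 2.80-fold lower at 180 days. It was lower at 180 days in both genotypes without overlap. Tgfb2 also fell, from 2.24 ± 0.303 to 1.62 ± 0.125 units (log2 difference -0.46, SE 0.09, limma adjusted p = 0.00142), again without overlap. Bmpr1b and Bmpr1a had estimates of -0.15 and -0.27 that did not pass the test (limma adjusted p = 0.0727 and 0.181).

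Tgfb1 was higher at 180 days, 6.53 ± 0.973 units against 4.31 ± 1.22 (SD, n = 6), by 0.63 on the log2 scale (SE 0.11, limma adjusted p = 4.5e-04), with overlap between 5.49 and 5.91 units. This mean covers unlike genotypes: black ovaries measured 5.86 ± 0.323 units at 180 days and 5.26 ± 0.956 at 90 days, which overlapped, and LY ovaries 7.20 ± 0.959 and 3.37 ± 0.352, which did not (SD, n = 3). The test of that inequality is the difference of 0.92 given above, which did not pass the threshold. Both Tgfb3 probes were higher, the brighter by 0.32 (SE 0.09, adjusted p = 0.0138) with overlap and the dimmer by 0.58 (SE 0.07, adjusted p = 4.8e-05) without, from limma. All 4 leukocyte markers tested were called higher at 180 days as well (median log2 difference 1.01), where 33.8% of all probes were called higher. The summed levels of these markers were 34.0 to 59.8 units against 20.6 to 33.8, and 1 of the 4 markers, Adgre1, was under 0.2 units on all 90-day arrays. Their part in the Tgfb1 and Tgfb3 values was not tested.

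The 2 probes of Bmp2 moved in opposite directions with age. The brighter probe rose from 6.17 ± 0.583 units at 90 days to 9.85 ± 1.41 at 180 days (SD, n = 6), by 0.67 (SE 0.10, limma adjusted p = 1.4e-04), without overlap. The dimmer probe fell from 2.55 ± 0.409 to 2.08 ± 0.262 units, a log2 difference of -0.29 (SE 0.10, limma adjusted p = 0.0249), with overlap. This call was lost with quantile normalization and when replicate 3 of either 180-day group or replicate 2 of the 90-day LY group was left out (limma adjusted p = 0.0571 to 0.0614). No one direction can therefore be given for Bmp2. The dimmer Bmp7 probe rose by 0.28 (SE 0.06, limma adjusted p = 0.00283), without overlap, while the brighter one was at 0.24 (adjusted p = 0.129). Bmp4 and Bmp6 were at 0.27 and 0.15 (limma adjusted p = 0.0555 and 0.318).

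**Figure D3:**
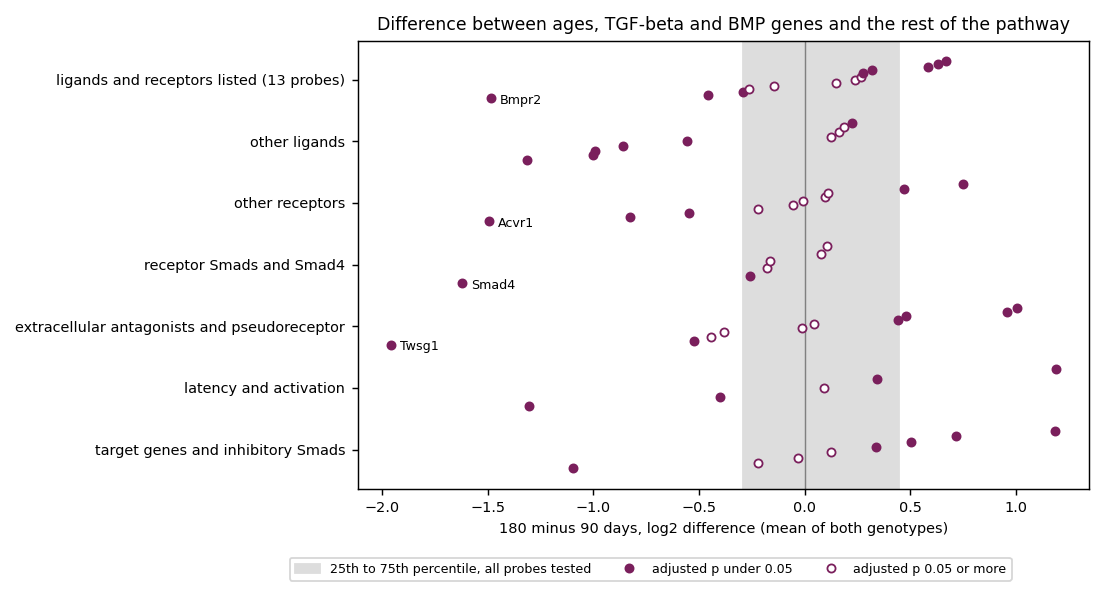
Log2 difference of 180 minus 90 days, averaged over both genotypes, for the 13 probes and for the other pathway genes by role, filled where the limma adjusted p was under 0.05, over a band from the 25th to the 75th percentile of all probes. Called genes are on both sides of 0 in every role except the receptor Smads and Smad4, with Bmpr2, Acvr1, Smad4 and Twsg1 far to the left.

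Of 54 other genes of the TGF-beta and BMP pathways listed, 49 had a probe of their own and 48 were tested. None of the 48 was called between LY and black ovaries at 180 days, at 90 days, over both ages or for the difference between ages (limma). Over these 4 comparisons the lowest adjusted p was that of Smad1 at 90 days. Smad1, which BMP receptors phosphorylate, measured 5.14, 5.59 and 5.50 units in 90-day black ovaries and 3.31, 3.51 and 3.88 in 90-day LY ovaries. These groups were apart by -0.60 on the log2 scale (SE 0.12, limma adjusted p = 0.0875). Of all probes 9.66% were apart and lower in LY at that age. At 180 days Smad1 measured 3.54, 4.37 and 3.37 units in black and 3.61, 3.28 and 3.94 in LY ovaries, which overlapped.

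Smad4, the common partner, measured 1.75, 1.72 and 1.55 units in black and 1.29, 1.24 and 1.43 in LY ovaries at 180 days, and 4.62, 4.76 and 6.13 against 3.84, 4.21 and 4.16 at 90 days. LY ovaries were below black ovaries without overlap at both ages, by -0.34 and -0.33 (limma adjusted p = 0.305 and 0.266). Of all probes 8.37% were apart and lower in LY at 180 days and 9.66% at 90 days. The share that was so at both ages was not computed. Smad5 had estimates of -0.49 and -0.40 (limma adjusted p = 0.386 and 0.441). Tgfbr2, the type II receptor of the TGF-betas, measured 2.23 ± 0.0968 units in black and 2.41 ± 0.106 in LY ovaries at 180 days, and 2.17 ± 0.211 and 2.14 ± 0.339 at 90 days (SD, n = 3). Its 180-day groups did not overlap, 2.32 to 2.52 units in LY and 2.12 to 2.30 in black ovaries (limma adjusted p = 0.764). Of all probes 14.3% were apart and higher in LY at that age. Tgfbr1, the type I partner, was dim, with all 3 LY and 2 of 3 black ovaries at 180 days and 2 of 3 black ovaries at 90 days under 0.2 units, and its groups overlapped at both ages. Of the target genes of BMP signalling, Id1 measured 2.71 ± 0.580 units in black and 2.44 ± 0.166 in LY ovaries at 180 days and 5.54 ± 0.736 and 5.42 ± 0.420 at 90 days. Id3 stayed between 37.3 and 43.5 units on all 12 arrays.

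Between the ages, 28 of the 48 (58.3%) were called, 13 higher and 15 lower at 180 days, beside 59.3% of all probes. Among other receptors, Acvr1, a type I receptor for BMPs, was 2.82-fold lower at 180 days averaged over both genotypes (limma adjusted p = 5.5e-06). Acvr1 went from 20.1 ± 1.67 units at 90 days to 6.57 ± 1.22 at 180 days in black ovaries. In LY ovaries it went from 19.9 ± 0.707 to 7.94 ± 2.52 units (SD, n = 3). Acvr1b, a receptor for activins, fell by 0.55 on the log2 scale. Acvrl1, an endothelial receptor of the same class, rose by 0.75. Amhr2, the receptor of anti-Mullerian hormone, was higher by 0.47 but stood at -0.33, not called, under quantile normalization. Smad4 fell by 1.62 (limma adjusted p = 8.7e-08) and Id1 fell by 1.10 (limma adjusted p = 1.2e-05). Smad1 fell by 0.26 (limma adjusted p = 0.0201), a call that was lost when replicate 3 of the 180-day black group or replicate 2 of the 180-day LY group was left out (limma adjusted p = 0.0511 and 0.0514). The same call was lost with the replicate number as a block (limma adjusted p = 0.0591). Tgfbr1 was also called lower at 180 days (log2 difference -0.83, limma adjusted p = 0.0273), on values of which 5 of 6 at 180 days were under 0.2 units. With a floor of 0.2 units its difference was -0.44 and not called (limma adjusted p = 0.0971), and the call held in 7 of 12 fits with 1 array left out, being lost without replicates 1 and 2 of the 180-day black, 2 of the 180-day LY, 1 of the 90-day black or 1 of the 90-day LY group, each in turn. Smad5 and Tgfbr2, at -0.17 and 0.11, were not called.

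Of 9 other ligands tested, 6 were called, 5 lower and 1 higher at 180 days. The 1 that was higher was Amh, the granulosa cell hormone (log2 difference 0.22, limma adjusted p = 0.0437), named here after its value was seen. Its call held in only 4 of 12 fits with 1 array left out, those without replicate 2 of the 180-day black, 1 of the 180-day LY, 1 of the 90-day black or 2 of the 90-day LY group (limma adjusted p up to 0.103 in the others), and was lost without division by the median, without the filter and with the replicate number as a block. The oocyte factors Gdf9 and Bmp15 fell by 0.56 and 1.00 on the log2 scale, Bmp3 by 0.99 and the inhibin subunit Inha by 0.86. These averages over both genotypes were called (limma adjusted p = 7.0e-05 to 7.4e-04). Under quantile normalization the log2 difference of Inha was -1.54. Bmp15 went from 3.37 ± 0.818 to 1.88 ± 0.334 units in black ovaries and from 3.46 ± 0.872 to 1.51 ± 0.224 in LY ovaries (SD, n = 3). Gdf9 and Bmp15 are also among the oocyte markers and Inha among the granulosa markers, so these lists are not separate from the pathway genes. Of the oocyte markers 4 of 10 were called lower at 180 days and 1 higher, and of the granulosa markers 5 of 7 lower and 1 higher. Of all probes 25.4% were called lower and 33.8% higher. Of the secreted antagonists, Nbl1 and Grem1 rose by 1.01 and 0.96, and Twsg1 and Chrdl1 had differences of -1.96 and -0.52. Ltbp1, which anchors latent TGF-beta in the matrix, fell by 1.31, and Furin, which cleaves the precursors, fell by 0.40. Ltbp4 rose by 0.34 and Thbs1, an activator of latent TGF-beta, by 1.19. The target genes Id4, Skil and Ccn2 rose by 1.18, 0.71 and 0.50. Skil was under 0.2 units on 4 of 6 arrays at 90 days and on 1 of 6 at 180 days, and Thbs1 and Id4 were close to that limit at 90 days. All of these passed the test (limma adjusted p = 1.2e-06 to 0.00752).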

How the data were processed

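Labelled cRNA made from the total RNA of 1 ovary per mouse, per the series' design text, was hybridized to 12 one-colour CodeLink Whole Mouse Genome arrays, 1 per mouse and none pooled. Per the methods, the authors used a GenePix scanner, the CodeLink software for background correction and GeneSpring for scaling each slide to its 50th percentile. The deposited values are linear intensity values in units of about the array median (medians 1.00 to 1.04), with 166 to 503 missing and 67 to 144 negative values per array, and 80.8 to 83.3% at 0.2 units or more. A step that scales each gene to its median is also named in the methods, but the deposited intensity values keep each probe's own level.

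Groups came from the sample titles. The deposited intensity of an array was scaled to a median of 1, raised to 0.01 units where it was lower, and taken to log2. A probe was tested if its mean reached 0.2 units in at least 1 of the 4 groups and each group had a value (31359 of 36227 probes, 19215 with 1 gene symbol, for 16323 genes). In the platform annotation 21615 probes carry 1 symbol, 681 several and 13931 none. A model with 4 group means was fitted to the 12 arrays in limma 3.58.1 (R 4.3.3, 8 residual and 2.46 prior degrees of freedom), with adjusted p from the Benjamini-Hochberg method over all probes tested and a threshold of 0.05. The procedure was run on simulated arrays with known changes in the 180-day LY group only. These changes were larger than the 180-day differences of the genes described here. The simulated arrays had no difference between the ages, so the run does not cover the other comparisons. The comparisons were LY against black at each age, over both ages, the difference of these effects, and 180 against 90 days. Log2 differences of dim probes depend on the floor. The number of arrays limits the precision, and p-values rest on 3 mice per group.

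The genes, the pathway and marker lists and the tests were chosen with earlier results of these data known. All probes of the 10 genes are named. Of other pathway genes, those named are up to 4 per role and comparison past the threshold, by p, and always Smad1, Smad4, Smad5, Tgfbr1, Tgfbr2, Id1 and Id3. Where probes share a gene, the one with the highest mean log2 value comes first and the others stand beside it. Alternatives were a floor of 0.2 units, a pseudocount of 0.1 units, quantile normalization, no division by the median, no filter, an intensity trend, array quality weights, 1 age only, the methods' t-test (Welch), a replicate block and leaving out each array. Promoter letters are from RefSeq on GRCm38.p6, and coordinates refer to that build, since the array values name none. Not analysed here are the RT-PCR and steroid measurements.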

Additional observations from a re-analysis of the deposited data

Results flagged for a closer look

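The LY effect on Tgfb1 ran in opposite directions at the 2 ages, by 0.92 on the log2 scale (SE 0.21), with every LY ovary above every black ovary at 180 days and below every one at 90 days (n = 3 mice per group). The test of this difference itself gave a limma adjusted p = 0.133, so it did not pass the threshold over all probes. The adjusted p was 0.114 to 0.275 when single arrays were left out and 0.0559 to 0.329 under the other settings. Of all probes, 2.26% had groups apart in opposite directions at the 2 ages.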

How the results depend on the processing

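The count of the 13 probes called between LY and black ovaries was 0 in every comparison under each alternative, and the count between the ages was 7 to 9. By the methods' t-test 0 of 13 at 180 days and 2 at 90 days had p under 0.05 before adjustment, as did 3134 and 2053 of all probes. Of 1744 values over 84 results of single probes, 1695 kept their direction and their side of the threshold, 24 lost a call (Amh and Tgfbr1 between the ages in 17 of these), 12 gained one and 13 changed sign. Under quantile normalization the 90-day difference of the brighter Tgfb3 probe was 0.0088, the age difference of Amhr2 -0.33 and that of Inha -1.54, and the cause was not tested. Leaving out single arrays, sign changes occurred at 180 days for the brighter Tgfb3 probe (-0.19 to 0.0057), the brighter Bmp7 probe (-0.28 to 0.031), the dimmer Bmp7 probe (-0.053 to 0.073) and Smad1 (-0.13 to 0.060), and at 90 days for Tgfb2 (-0.14 to 0.10), the brighter Bmp7 probe (-0.22 to 0.039), Bmpr1a (-0.37 to 0.037) and Bmpr2 (-0.17 to 0.032). All of these are differences near 0 that passed no test. With an intensity trend, 2 other pathway genes were called at 90 days (Smad1 and Furin), 1 over both ages (Nbl1) and 1 for the difference between ages (Furin), and without 90-day black replicate 3 the 90-day count was 1 (Inhbb, range 0 to 1 with single arrays left out), where the main counts were 0. These genes were named after their values were seen, apart from Smad1. The age difference of Bmp4 was called under 6 alternatives, among them the floor of 0.2 units and quantile normalization, and that of Bmpr1b under 4. Over all probes the calls between genotypes moved far more: from 14 at 180 days to 163 with array weights and 111 with the trend, 52 with the 0.2 floor and 0 with the methods' t-test, and from 14 at 90 days to 200 with the trend, 132 with the 0.2 floor and 0 with that t-test, with 1 to 21 and 1 to 72 when single arrays were left out. Over both ages they moved from 2 to 95 and for the difference between ages from 0 to 198, both with the trend. Without division by the median, the age calls were 9543 higher and 9112 lower, against 10605 and 7977.

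Replicate numbers were not used as pairs in the main fit. Deviations of same-numbered LY and black arrays correlated at -0.07 to -0.00 at 180 days and at 0.05 to 0.15 at 90 days. Differently numbered arrays were not compared in this way, so whether equal numbers mark shared handling was not tested. With the replicate number as a block, 0 of the 13 probes were called in each of the 4 genotype comparisons and 8 between the ages, and over all probes 2, 1, 1, 0 and 17652.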
